A study of Mus musculus with 6 samples.

Results

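RNA polymerase II, the general transcription factors that load it at promoters, and the Mediator complex that bridges it to activators were followed in presomitic mesoderm of mouse embryos with a conditional deletion of Taf10. The members are all probe sets whose single gene symbol names a polymerase II subunit (Polr2a to Polr2m), a subunit of TFIIA, TFIIB, TFIIE, TFIIF or TFIIH with its kinase (Gtf2a, b, e, f and h genes, Ercc2, Ercc3, Cdk7, Ccnh and Mnat1), the TATA-binding protein Tbp, or a Mediator subunit (Med genes, Cdk8, Cdk19 and Ccnc). They make up 67 of 16311 single-symbol probe sets, or 63 of 15153 genes. Med26 and Gtf2h2 were not analysed here. Members were taken by gene symbol and not by measured value, though with earlier results of these data known. Both genes given to mark the set, Polr2a and Gtf2a1, are in it.

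Mutant embryos were TCre/+;Taf10flox/flox, with Cre under the control of the Brachyury (T) gene, which acts in early mesoderm and the tail bud. Control embryos were Taf10Flox/+ or Taf10flox/flox and are labelled wild type. The tissue, the unsegmented paraxial mesoderm from which somites form, was dissected at embryonic day 9.5, at 17 to 19 somites. Each array read a pool of 3 presomitic mesoderms, with 3 pools per genotype. Single embryos were therefore not measured, and the labels of the arrays do not say which control genotype, or whether Cre, was present in a pool. TAF10 is a subunit of both TFIID and SAGA, and the study deleted its gene to ask which transcripts then differ in level.

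Transcription of a protein-coding gene begins when TFIID, with TBP inside it, binds the core promoter. TFIIA stabilises TBP on DNA, TFIIB docks the polymerase, TFIIF accompanies the polymerase, and TFIIE brings in TFIIH, whose helicases open DNA and whose kinase phosphorylates the tail of the largest polymerase subunit. Mediator has head, middle and tail modules held by the MED14 backbone, contacts the polymerase mainly through the head and middle, and binds activators mainly through the tail. A detachable kinase module (CDK8 or CDK19, cyclin C, MED12 and MED13 or their paralogues) blocks its contact with the polymerase.

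The deposited values had been normalized between arrays, and the array medians ran from 307.9 to 317.5. Levels here are therefore relative, and a change in RNA common to most genes would not be seen. Of 2 Taf10 probe sets, the one that stood for the gene fell to 77.1% of control (log2 change -0.37, SE 0.08, limma adjusted p = 0.0400), but 0 of its 20 neighbours in the numbering of the array lay on the chromosome of Taf10. The other, with 19 of 20 neighbours on that chromosome, gave a log2 change of 0.11 (adjusted p = 0.530). The sources used here do not say whether either reads the deleted part, so the deletion was not checked directly. Markers of presomitic mesoderm were read in both groups (Tbx6, Msgn1, Hes7 and 6 others, summed log2 level 14.7 to 14.8 in mutant and 14.5 to 14.6 in control pools). Of these 9, 2 were called higher (Hes7 and Tbx6) and 2 lower (Rspo3 and Cyp26a1). Blood genes (4 measured, 0 of them called) summed to 11.92 to 14.01 in mutant and 13.2 to 14.4 in control pools, and 4 endothelial genes, with 0 called, to 8.735 to 10.01 in mutant and 8.9996 to 10.46 in control pools. Over the 4 blood genes the median log2 change was -0.50, and over the 4 endothelial genes -0.24. Somite markers, of the tissue next to the presomitic mesoderm, summed to 10.49 to 10.97 in mutant and 10.92 to 11.30 in control pools (5 measured, 0 called, median log2 change -0.31). Of 5 markers of intermediate and lateral mesoderm 1 was called, Lhx1, which was higher (sums 11.86 to 12.31 in mutant and 11.98 to 12.22 in control pools). Markers of neural tube (5 measured), gut (4) and notochord (2) had 0 called. The part of these cell types in the results was not tested, and in a pool of tissue fewer cells of a type and less RNA per cell cannot be told apart. Mutant 3 lay apart from the other arrays, with a root mean square distance of 0.184 log2 units from its group mean against 0.0762 to 0.112 for the others. The log2 intensity of Xist was 6.32 in control 3, while the other 5 arrays read it between 11.3 and 12.6. Xist is the RNA of the inactive X chromosome and marks female cells.

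The promoters of the 3 members past the threshold are shown first, because these genes carry the calls and TFIID, which holds TAF10, binds core promoters. Each line gives the 250 bases before the annotated start from RefSeq (GRCm38.p6), 5′ to 3′ on the strand of the gene, with matches to 5 motifs in capitals, searched on both strands. These were the TATA box written as TATAAA, the CCAAT box, the GC box written as GGGCGG, the core of ETS family sites written as CCGGAAG, and the E-box written as CACGTG. The windows are chr11:69758634-69758883, minus strand, for Polr2a, chr12:91590488-91590737, minus strand, for Gtf2a1 and chr9:71485984-71486233, minus strand, for Polr2m.
Polr2a: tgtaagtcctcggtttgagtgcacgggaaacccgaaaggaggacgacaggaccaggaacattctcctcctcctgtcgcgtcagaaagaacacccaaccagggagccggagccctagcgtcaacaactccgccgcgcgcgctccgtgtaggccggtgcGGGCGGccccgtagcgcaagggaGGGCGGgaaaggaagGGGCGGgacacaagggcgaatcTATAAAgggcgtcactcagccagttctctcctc
Gtf2a1: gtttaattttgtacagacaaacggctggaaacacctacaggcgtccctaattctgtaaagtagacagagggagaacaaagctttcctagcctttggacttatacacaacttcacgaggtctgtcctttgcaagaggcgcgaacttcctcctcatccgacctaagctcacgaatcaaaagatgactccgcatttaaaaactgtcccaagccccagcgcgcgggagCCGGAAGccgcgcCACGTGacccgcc
Polr2m: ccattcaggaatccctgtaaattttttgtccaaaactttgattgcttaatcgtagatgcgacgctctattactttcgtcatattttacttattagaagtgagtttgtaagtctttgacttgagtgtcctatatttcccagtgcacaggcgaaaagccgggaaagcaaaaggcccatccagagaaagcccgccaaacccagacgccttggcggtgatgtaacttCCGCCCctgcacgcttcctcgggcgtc
In the Polr2a window TATAAA starts 33 bases before the start, and 3 copies of GGGCGG start at 93, 70 and 55 bases. The Gtf2a1 window holds CCGGAAG 26 bases and CACGTG 13 bases before the start, and the Polr2m window holds GGGCGG on the opposite strand 27 bases before it. No matches overlapped in these 3 windows. A second annotated start of Gtf2a1 had 0 matches in its window, and the second of Polr2m had 2, both CCAAT. Of 52 members with a promoter in the table, 7 had TATAAA (13.5%, against 9.66% of 11918 measured genes with a promoter), 32 had GGGCGG (61.5% against 57.7%) and 19 had CCAAT (36.5% against 39.4%). For CCGGAAG the shares were 21.2% against 12.5%, and for CACGTG 13.5% against 9.15%. A gene counts here if any of its windows holds the motif. Over all 32851 windows of this length TATAAA was in 12.4%, CCAAT in 33.8%, GGGCGG in 32.7%, CCGGAAG in 6.91% and CACGTG in 6.02%. A match describes the letters only.

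As a set, the members were called about as often as all genes, and their changes were of about the same size. A gene that did not pass is not thereby shown to be unchanged. Of 63 member genes 2 rose (Polr2a and Gtf2a1), 1 fell (Polr2m) and 60 did not pass. Calls were made at an adjusted p under 0.05 in limma, with Benjamini-Hochberg adjustment over all single-symbol probe sets. The called share of 4.76% lies near the background of 5.92% among all genes, of which 2.96% were called higher and 2.96% lower. The values of the mutant and control pools did not overlap in 20 members, 10 higher and 10 lower, or 31.7% against a background of 32.3% (17.2% higher and 15.1% lower). Without adjustment 11 members had p under 0.05 (17.5%), against 22.7% of all genes. The members' median log2 change was -0.00, beside 0.03 over all genes, and the median size of their change, without its sign, was 0.112 beside 0.109. For 55 of 63 members (87.3%) the 95% interval of the change lay within 1.5-fold in either direction, against 90.1% of all genes. 

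**Figure D1:**
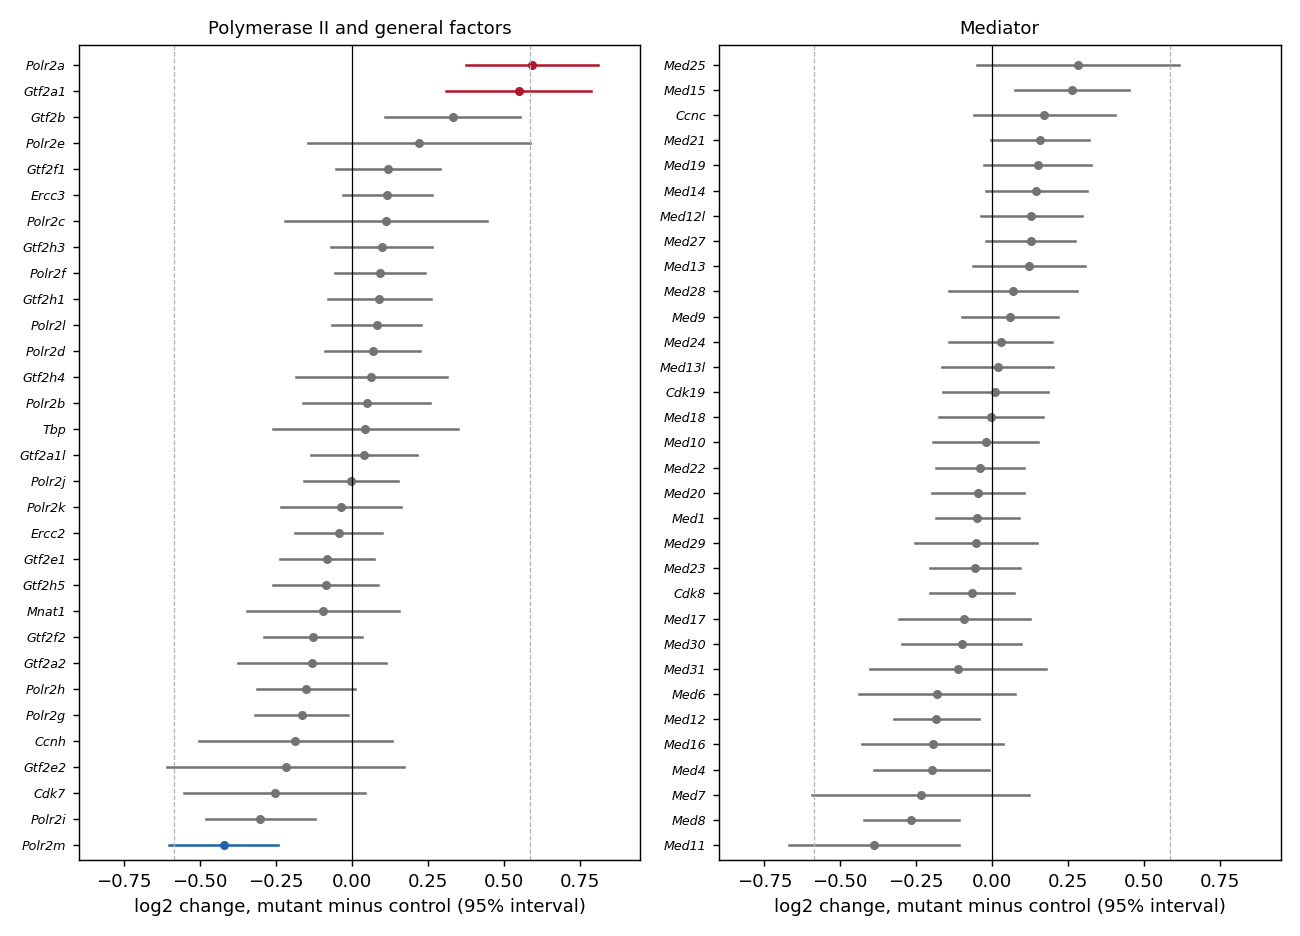
Log2 change, mutant minus control, of each of the 63 member genes (points) with limma's 95% interval (lines), sorted by size within polymerase II with the general factors (left) and Mediator (right); red marks genes called higher, blue genes called lower, grey the rest, and dashed lines stand at 1.5-fold. Polr2a (0.59) and Gtf2a1 (0.55) lie highest and Polr2m (-0.42) lowest, and no Mediator gene is coloured.

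Polr2a encodes the largest polymerase II subunit, which holds much of the active site and carries the repeated C-terminal tail. Its log2 intensity was 12.17, 12.18 and 12.33 in mutant pools, against 11.59, 11.50 and 11.81 in control pools. Every mutant pool lay above every control pool, and mutant 3 was the highest of the 6. Polr2a rose 1.51-fold (log2 change 0.59, SE 0.09, 95% interval 0.38 to 0.81, adjusted p = 0.0142 in limma). Gtf2a1 encodes the precursor that is cleaved into the large subunits of TFIIA. It was read at 11.67, 11.72 and 11.41 in mutant pools and at 10.94, 11.03 and 11.19 in control pools. The groups did not overlap, and here mutant 3 was the lowest mutant pool. Gtf2a1 rose 1.46-fold (log2 change 0.55, SE 0.10, 95% interval 0.31 to 0.79, limma adjusted p = 0.0251).

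Polr2m encodes GDOWN1, a protein bound to a fraction of polymerase II that competes with TFIIF and makes the enzyme dependent on Mediator. It was read at 11.30, 11.27 and 11.07 in mutant pools and at 11.66, 11.62 and 11.63 in control pools. The controls lay close together and every mutant pool lay below them, with mutant 3 lowest. Polr2m fell to 74.6% of control (log2 change -0.42, SE 0.08, 95% interval -0.60 to -0.24, limma adjusted p = 0.0242). In the numbering of the array its probe set stands next to Myzap, and the sources used here do not say which transcripts of the locus it reads. For each of these 3 genes an exact permutation test over the 20 splits of the arrays, two-sided, gave p = 0.1, the smallest that 3 against 3 allows.

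**Figure D2:**
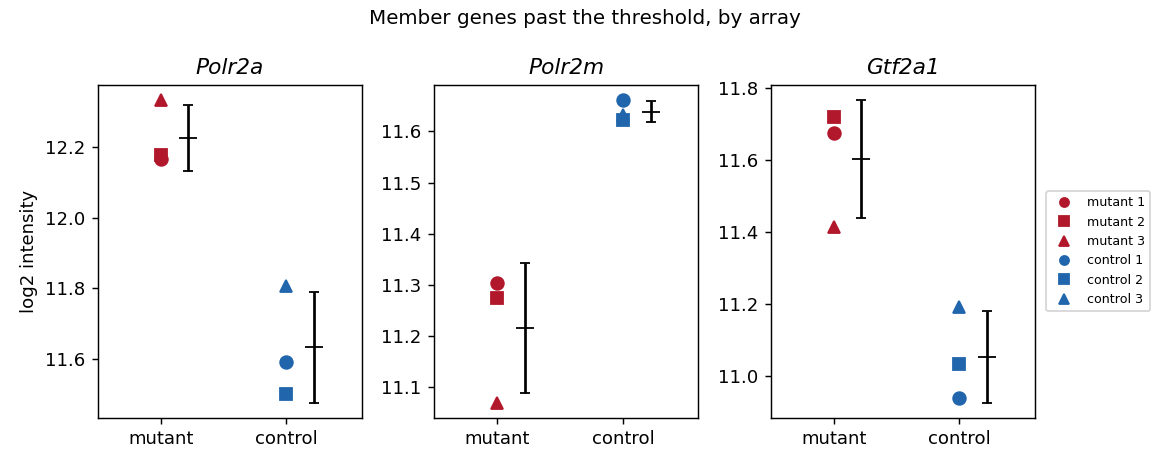
Log2 intensity (y axis, not starting at 0) of Polr2a, Polr2m and Gtf2a1 in each mutant (red) and control (blue) pool; black marks show the mean with the SD of 3 pools. In each panel the groups are apart, with Polr2a at 12.23 ± 0.09 in mutant and 11.63 ± 0.16 in control pools, Polr2m at 11.22 ± 0.13 in mutant and 11.64 ± 0.02 in control pools, and Gtf2a1 at 11.60 ± 0.16 in mutant and 11.05 ± 0.13 in control pools.

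These calls rested on several arrays. Without control 1 or control 2, none of the 63 members passed, and only 0.271% and 0.442% of all genes did. Polr2a then had adjusted p-values of 0.0893 and 0.0861, Gtf2a1 0.126 and 0.126, and Polr2m 0.122 and 0.120. Gtf2a1 was also lost without mutant 1 (0.0684) or mutant 2 (0.0721). Polr2m was also lost without mutant 2 (0.0548), without control 3 (0.0808) and with the Xist level as a covariate (0.0549), with log2 changes of -0.45, -0.43 and -0.44 beside -0.42 over all arrays. Over all fits with 1 array left out, the log2 change ran from 0.53 to 0.68 for Polr2a and from 0.49 to 0.64 for Gtf2a1, so the lost calls did not come with a change of sign. Members called numbered 2 without mutant 1, 1 without mutant 2 and 2 without control 3, with backgrounds of 3.1%, 2.34% and 2.13%. Without mutant 3 the number of members called went up to 4 higher and 5 lower (14.3%, against 12.8% of all genes), and without control 3 and mutant 3 together to 4 higher and 4 lower (12.7% against 14%). With only mutant 3 left out the additions were Gtf2b and Ccnc among those higher and Med16, Med6, Med8 and Polr2i among those lower.

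**Figure D3:**
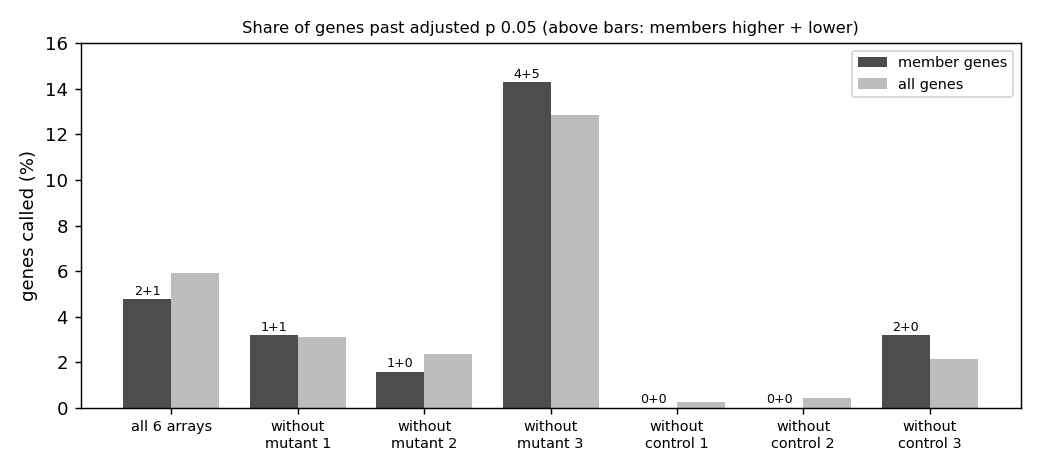
Percent of genes past an adjusted p of 0.05 (y axis) among the 63 members (dark bars) and all genes (light bars), with all 6 arrays and with each array left out in turn; numbers over the bars give the members called higher and lower. The members' share runs from 0 without control 1 or 2 to 14.3% without mutant 3.

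Among the 13 polymerase II subunit genes, 1 rose, 1 fell and 11 did not pass (15.4% called, against 5.92% of all genes). These calls are the Polr2a and Polr2m already given. The median log2 change was 0.05 (-0.03 without mutant 3). Polr2b, whose product forms the active centre together with that of Polr2a, was read at 10.95, 10.93 and 10.66 in mutant pools and at 10.74, 10.80 and 10.85 in control pools. Its groups overlapped, with mutant pools both above and below the controls (log2 change 0.05, 95% interval -0.16 to 0.26). Polr2i, whose product helps start-site choice and proofreading, came closest to the threshold among the other subunits. It was read at 8.53, 8.55 and 8.37 in mutant pools, all below the 8.85, 8.70 and 8.81 of control pools (log2 change -0.30, SE 0.08, adjusted p = 0.0651). Polr2g, which encodes a subunit of the stalk of the enzyme, also lay lower in each mutant pool (log2 change -0.17, adjusted p = 0.188), while Polr2d, its partner in the stalk, overlapped (log2 change 0.07, adjusted p = 0.570). Polr2j, whose product pairs with that of Polr2c in assembly of the enzyme, showed a change of -0.00 (95% interval -0.16 to 0.15).

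Polr2e, Polr2f, Polr2h, Polr2k and Polr2l encode subunits that polymerase II shares with polymerases I and III. None of the 5 passed, and their log2 changes ran from -0.15 for Polr2h to 0.22 for Polr2e, with a median of 0.08. Polr2e was read at 11.21, 11.23 and 11.83 in mutant pools and at 11.24, 11.13 and 11.23 in control pools. Only mutant 3 stood above the controls there, and mutants 1 and 2 lay within their range. Polr2f was higher in each mutant pool by a small amount (log2 change 0.09, adjusted p = 0.432). For Polr2c and Polr2h the probe set with the highest level, which stood for the gene, had 0 of 20 neighbours on the chromosome of the gene. Their other probe sets, placed among neighbours of that chromosome, gave log2 changes of 0.14 for Polr2c and -0.14 for Polr2h, beside 0.11 and -0.15 for those that stood for the genes. The readings of each gene therefore had the same sign and none passed, although without mutant 3 the reading that stood for Polr2c was -0.07.

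TFIIA showed a rise in 1 of 3 genes, the Gtf2a1 already given, against 2.96% of all genes called higher. Gtf2a2, which encodes the small TFIIA subunit, was read at 9.59, 9.53 and 9.24 in mutant pools and at 9.68, 9.61 and 9.46 in control pools. Its groups overlapped and its change was -0.13 (95% interval -0.38 to 0.11, adjusted p = 0.488). Gtf2a1l, a paralogue of Gtf2a1 known from the germ line, lay between 6.02 and 6.20 on all 6 arrays (log2 change 0.04, adjusted p = 0.786). It was the only member below the 40th percentile of mean level.

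Gtf2b, the single gene for TFIIB, was read at 10.02, 10.16 and 9.85 in mutant pools and at 9.62, 9.60 and 9.81 in control pools. Each mutant pool lay above each control pool, with mutant 3 and control 3 closest. The difference of 0.33 (SE 0.10) did not pass (adjusted p = 0.0889). It passed without mutant 3 (log2 change 0.41, adjusted p = 0.0147) and after quantile normalization (0.37, adjusted p = 0.0490). Tbp was read at 10.90, 10.98 and 11.43 in mutant pools and at 11.07, 11.07 and 11.04 in control pools. Mutant 3 alone stood above the controls while mutants 1 and 2 stood below them, so the mean change of 0.04 (95% interval -0.26 to 0.35) averages opposite deviations and was -0.12 without mutant 3.

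TFIIE and TFIIF, with 2 genes each, the 6 genes of the TFIIH core and the 3 of its kinase had 0 called genes. Gtf2e2, the smaller TFIIE subunit gene, was read at 10.02, 10.03 and 9.37 in mutant pools and at 10.08, 10.07 and 9.94 in control pools, so that only mutant 3 lay far below. The TFIIF genes had log2 changes of opposite sign, 0.12 for Gtf2f1 and -0.13 for Gtf2f2, and neither passed. The 6 TFIIH core genes stayed between -0.09 (Gtf2h5) and 0.12 (Ercc3, which encodes the XPB translocase), and Ercc2, the XPD helicase gene, had a log2 change of -0.04 (95% interval -0.19 to 0.10). All 6 intervals lay within 1.5-fold in either direction.

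The CDK-activating kinase is the kinase module of TFIIH that phosphorylates the polymerase tail and cell cycle kinases. Its 3 genes all had negative changes, or 2 of 3 without mutant 3, and 0 passed. Negative changes were found in 40.7% of all genes and 52.4% of members. Cdk7, the kinase itself, was read at 9.87, 9.83 and 9.37 in mutant pools and at 9.91, 9.98 and 9.94 in control pools. Each mutant pool lay below each control pool, mutant 3 by far the most (log2 change -0.25, adjusted p = 0.291). A second Cdk7 probe set, next to the first in the numbering, gave -0.26 (limma adjusted p = 0.463). That probe set was read at 8.05, 8.18 and 7.39 in mutant pools and at 7.98, 8.28 and 8.13 in control pools. Only mutant 3 lay below the controls there. Ccnh, the cyclin of Cdk7, was read at 10.13, 10.18 and 9.63 in mutant pools and at 10.17, 10.20 and 10.12 in control pools. Mnat1, the assembly factor, had a log2 change of -0.09. The median of the 3 genes relative to the control mean was -0.04 and -0.03 in mutants 1 and 2 and -0.54 in mutant 3 (median log2 change -0.19).

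Mediator had 0 genes past the threshold among 32, with 5 at an unadjusted p under 0.05 (15.6%, against 22.7% of all genes). Their log2 changes ran from -0.39 for Med11 to 0.28 for Med25, with a median of -0.03. In 10 genes the mutant and control pools did not overlap, 5 higher and 5 lower, or 31.3% against the background of 32.3%.

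All 7 head module genes had negative changes, with a median of -0.09, and 0 passed. Among all genes 40.7% were negative, and among the members 52.4%. Without mutant 3 the negative head genes were 5 of 7, and without control 1 or control 2 they were 6. Med8, which in yeast anchors Med18 and Med20 to the head, was read at 8.774, 8.796 and 8.639 in mutant pools and at 8.998, 8.993 and 9.015 in control pools. The controls lay close together and every mutant pool lay below them, yet the change of -0.27 (SE 0.07) did not reach the threshold (adjusted p = 0.0604). Med11, which with Med22 forms part of the head, was read at 9.09, 8.75 and 8.85 in mutant pools and at 9.36, 9.42 and 9.07 in control pools. Mutant 1 lay just above control 3, and the change of -0.39 (SE 0.12) had an adjusted p of 0.105. Med6 was read at 10.64, 10.58 and 10.99 in mutant pools and at 10.99, 10.91 and 10.86 in control pools. Mutants 1 and 2 lay below all controls and mutant 3 among them, and without mutant 3 Med6 passed as lower (log2 change -0.31, adjusted p = 0.0166). Med17, the scaffold of the head, had a log2 change of -0.09 and Med18 of -0.00.

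In the middle module 3 of 8 genes had positive and 5 negative changes (4 and 4 without mutant 3), and 0 passed. Med21 and Med19 were higher in each mutant pool, by 0.16 (adjusted p = 0.228) and 0.15 (adjusted p = 0.287). Med4 was lower in each mutant pool by 0.20 in the reading that stood for it (log2 change -0.20, adjusted p = 0.197). Its second probe set gave -0.26, but 0 of its 20 neighbours lay on the chromosome of Med4 and 18 lay on the X. Med1, the subunit that binds nuclear receptors, had a log2 change of -0.05 (95% interval -0.19 to 0.09). Med7 was read at 9.24, 9.17 and 8.61 in mutant pools and at 9.24, 9.29 and 9.18 in control pools, with mutant 3 alone far below.

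Med14, the backbone, was read at 11.44, 11.52 and 11.63 in mutant pools and at 11.35, 11.40 and 11.41 in control pools. The groups did not overlap, and the change of 0.15 had an adjusted p of 0.273. Med14 and Med12 are X-linked. Control 3, the pool with the low Xist level, was the highest control in Med14 and the lowest in Med12, which was read at 10.06, 10.01 and 10.01 in mutant pools and at 10.24, 10.22 and 10.17 in control pools. With the Xist level as a covariate the log2 changes were 0.17 for Med14 and -0.20 for Med12, and neither passed.

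In the tail 5 of 9 genes had positive changes, with a median of 0.03, and 0 passed; without mutant 3 there were 3 positive, with a median of -0.02. Med15, a target of several activators, was read at 9.73, 9.70 and 9.92 in mutant pools, all above the 9.58, 9.44 and 9.54 of control pools (log2 change 0.26, SE 0.08, adjusted p = 0.105). Med25 was read at 10.48, 10.41 and 10.97 in mutant pools and at 10.37, 10.23 and 10.42 in control pools, and only mutant 3 lay far above. Med16 had the most negative tail change (-0.20, adjusted p = 0.296). It was read at 9.21, 9.17 and 9.52 in mutant pools and at 9.55, 9.42 and 9.51 in control pools, so that mutants 1 and 2 lay below all controls and mutant 3 did not. Without mutant 3 it passed as lower (log2 change -0.30, adjusted p = 0.0164).

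The kinase module had 5 positive and 2 negative changes among 7 genes (4 and 3 without mutant 3), all within 0.20 of 0, and 0 passed. Its kinases Cdk8 and Cdk19, paralogues of each other, had log2 changes of -0.07 (95% interval -0.20 to 0.07) and 0.01 (95% interval -0.16 to 0.18). Ccnc, their cyclin, was read at 9.97, 10.05 and 9.68 in mutant pools and at 9.75, 9.75 and 9.68 in control pools. Mutants 1 and 2 lay above all controls and mutant 3 did not, and without mutant 3 Ccnc passed as higher (log2 change 0.28, adjusted p = 0.0182). Med12, which activates the kinase, was lower in each mutant pool (log2 change -0.18, SE 0.06, adjusted p = 0.122), while its paralogue Med12l had a log2 change of 0.13 (adjusted p = 0.327).

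**Figure D4:**
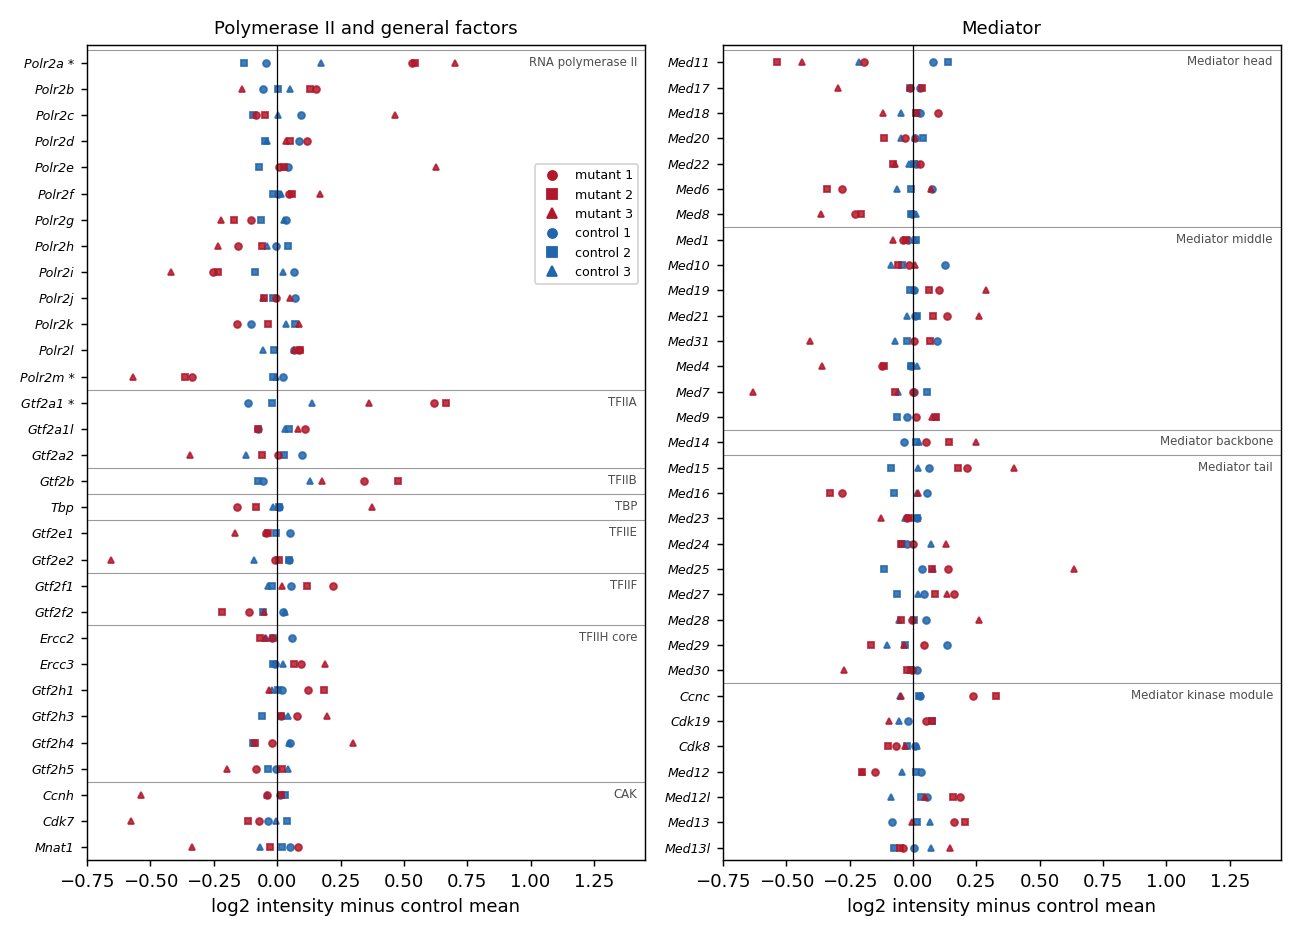
Log2 intensity of each member gene on each mutant (red) and control (blue) array, shown relative to the control mean (x axis), by complex; a star marks an adjusted p under 0.05 in limma. Mutant 3 (red triangles) lies outside the other 5 arrays in many rows, among them Cdk7, Ccnh, Gtf2e2 and Med7 on the low side and Polr2e, Polr2c, Tbp and Med25 on the high side.

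Mutant 3 read outside the range of the other 5 arrays in 40 of 63 members, above it in 17 and below it in 23 (63.5%, against 69.1% of all genes). By complex, its median lay lowest for the CDK-activating kinase (-0.54) and TFIIE (-0.41), and highest for Tbp (0.37) and Med14 (0.25). Mutants 1 and 2 had all-member medians of -0.00 and -0.03, and mutant 3 of -0.00, beside 0.01, 0.02 and 0.08 over all genes.

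**Figure D5:**
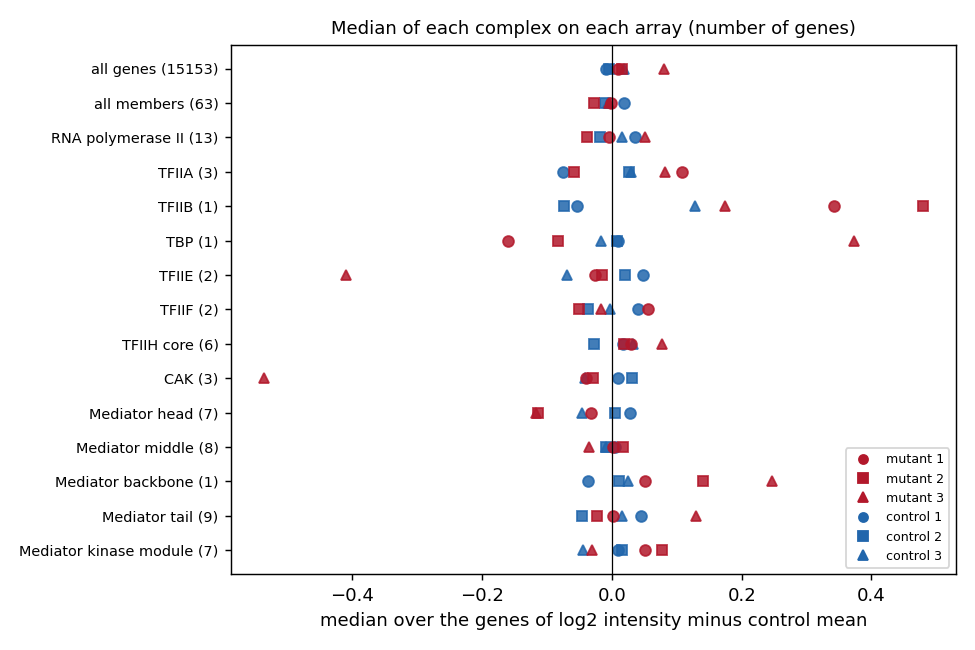
Median over the genes of each complex of log2 intensity minus the control mean (x axis), for each mutant (red) and control (blue) array; numbers of genes are in parentheses, and complexes with 1 gene show that gene. Mutant 3 departs most for the CDK-activating kinase (CAK, -0.54) and TFIIE (-0.41), while mutants 1 and 2 stand at -0.04 and -0.03 for CAK.

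Other genes of polymerase II transcription were read for context from lists drawn up by role, also with earlier results of these data known. Of 27 measured genes for pausing and elongation, 1 rose and 1 fell (7.41%, against 5.92% of all genes). Both act on P-TEFb, the kinase that releases paused polymerase, as parts of the 7SK particle that holds it inactive. Hexim1, the inhibitor of the kinase, was read at 8.42, 8.48 and 8.20 in mutant pools and at 7.64, 7.60 and 7.74 in control pools. Its groups lay well apart, and it rose 1.63-fold (log2 change 0.71, SE 0.09, limma adjusted p = 0.00747). Larp7, which stabilises 7SK RNA, was read at 10.45, 10.32 and 10.59 in mutant pools and at 11.15, 11.15 and 11.14 in control pools. It fell to 61.8% of control (log2 change -0.70, SE 0.08, limma adjusted p = 0.00646). A second Larp7 probe set gave -0.94 (limma adjusted p = 0.00710), although 0 of its 20 neighbours lay on the chromosome of Larp7. Cdk9, the kinase of P-TEFb, was higher in each mutant pool by 0.20 and did not pass (adjusted p = 0.148).

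Of 13 genes for phosphatases of the polymerase tail and for assembly of the enzyme 0 passed, with 5 at an unadjusted p under 0.05 (38.5%, against 22.7% of all genes). The most negative was Rpap3, an assembly factor (log2 change -0.42, adjusted p = 0.170). Of 17 genes for subunits found in polymerase I or III but not II, 0 passed and 12 were negative (70.6%, against 40.7% of all genes, median -0.08), with 3 at an unadjusted p under 0.05 (17.6%, against 22.7%). Relative to the control mean, the median of these 17 genes was -0.01 in mutant 1, -0.05 in mutant 2 and -0.13 in mutant 3. Of 4 TBP relatives and cofactors 0 passed, also at an unadjusted p under 0.05. Among 15 measured genes for TAF subunits of TFIID, 5 rose and 2 fell (46.7%, against 5.92% of all genes), with a median log2 change of 0.25. The difference between that share and the 4.76% of the members was not tested. Calls in these other lists were read only in the fit of all 6 arrays. Without control 1 or control 2, only 0.271% and 0.442% of all genes passed. The TAF genes that rose were Taf6 (log2 change 0.77), Taf5 (0.62), Taf12 (0.58), Taf4 (0.46) and Taf4b (0.38). The 2 that fell were Taf8 (-0.48) and Taf10 (-0.37), the latter in the reading of uncertain target.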

How the data were processed

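Arrays of 3 mutant and 3 control pools were analysed. The authors deposited intensity values per probe set, made with RMA (background correction, normalization between arrays, probe summary) per the submitters' processing notes; the sources used here give no version, chip description or filter. The deposited intensities are linear, from 20.5 to 21070, and log2 was taken without renormalizing or filtering them. Of 18064 probe sets, 16311 had 1 gene symbol, 734 several and 1019 none. Single-symbol probe sets entered 1 linear model of mutant minus control without covariates (lmFit and eBayes of limma 3.58.1, R 4.3.3), with Benjamini-Hochberg adjustment over all 16311; the fit was tested on simulated data. The probe set with the highest mean stood for a gene. The number of arrays limits the precision. Pools are biological replicates by their titles, so a p-value reflects how far pools of the same group spread, moderated by eBayes over all probe sets in the fit. The control pools may differ in genotype, which their labels do not give.

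Same-numbered mutant and control arrays had deviations from their group means that correlated at 0.13, 0.08 and 0.32. Differently numbered arrays were not compared in this way, so these values cannot decide whether the arrays are paired. The fit reported leaves pairing out. Members, lists and tests were chosen with earlier results of these data known. The text names Polr2a, Gtf2a1, every called member, the largest rise and fall of each complex, members with separate groups and a change of at least 0.3, X-linked members and called genes of the other lists; further members were named after their values were seen, to describe their complex. Alternatives were quantile normalization, median centring, a filter at the 40th percentile of level, a replicate block, the Xist level as covariate, an intensity trend, array weights, all probe sets, a threshold of 0.10, the mean of a gene's probe sets and each array left out. Probe sets with several symbols, among them 1 each for Med20 and Polr2k, were not used.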

Additional observations from a re-analysis of the deposited data

How the results depend on the processing

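Members called higher numbered 2 in the fit reported, 8 with array weights and 4 without control 3 and mutant 3 together. Members called lower numbered 1 in the fit reported, 3 after quantile normalization, 2 with the filter on level, 0 with the Xist covariate, 8 with array weights, 4 without control 3 and mutant 3, and 3 at an adjusted p under 0.10. Leaving out each array in turn gave 0 to 4 members higher and 0 to 5 lower. With array weights 25.4% of members passed, against 23.8% of all genes. After quantile normalization 9.52% of members passed against 6.53% of all genes, and with the Xist covariate 3.17% against 3.39%. With the filter on level 6.45% of 62 members passed, against 9.998% of 8922 genes. The share of all genes at an adjusted p under 0.10 is not given here, so that count has no background. The median log2 change of the members was -0.00, with -0.023 under the Xist covariate, -0.021 with array weights and -0.018 without control 3 and mutant 3, and it ran from -0.025 to 0.012 with each array left out. With the replicate number as a block 2 members were higher and 1 lower, while 7.15% of all genes passed, against 5.92% in the fit reported. The labels give a shared number for these arrays and do not say whether they are paired. The 3 called genes kept their direction in every alternative run, but 19 of 63 members, 0 of them called, turned sign in at least 1, with reported log2 changes of at most 0.112 in size. Among them, with array weights Tbp had -0.091, Med18 0.024 and Gtf2h5 0.0037, and without control 3 and mutant 3 Tbp had -0.130 and Med18 0.032. With each array left out Tbp ran from -0.121 to 0.145, Mnat1 from -0.182 to 0.026 and Med18 from -0.053 to 0.055. Leaving out control 3 and mutant 3 together, and reading Polr2c and Polr2h from their other probe sets, were chosen after seeing the data. The cause of these shifts was not tested. The small number of arrays limits what can be called.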
